A study of Mus musculus with 11 samples.

Results

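The genes described here encode the enzymes and transporters that carry glucose to pyruvate, turn pyruvate into exported lactate, control its entry into mitochondria, or divert glucose 6-phosphate into the pentose phosphate pathway, with the transcription factor Hif1a added. They were chosen by name, as 35 gene symbols, by a rule that used no measured value, though earlier results of these data were known. The symbols belong to 36 of the 52143 genes deposited, since Aldoa is held by 2 gene identifiers. Of the 36 genes, 35 were high enough to be tested, and Ldhb, the heart-type subunit of lactate dehydrogenase, was listed at 0 in every library.

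RNA came from RAW cells, a mouse macrophage-type line, that carried either a control short hairpin (shC, called control cells here) or a hairpin against GIV, also named Girdin and encoded by Ccdc88a (shGIV, called GIV-depleted cells here). Each line was kept without LPS, the bacterial lipopolysaccharide that activates macrophages through Tlr4, or was given LPS at 100 ng/ml for 5 h. Every group therefore carries a hairpin, and the labels do not say whether a line is 1 clone or whether replicates are separate cultures, so p-values measure only the spread between these samples. The comparisons use 9 libraries: control cells without LPS (replicates 1 and 3), control cells with LPS (replicate 2), and 3 replicates of GIV-depleted cells in each state. Control cells with LPS are thus a lone library, which the test assumes to vary like the other groups, and control replicate 3 with LPS is not analysed here. Replicate numbers are the set numbers in the titles, and the labels do not say what a set shared. LPS in control cells therefore compares set 2 with sets 1 and 3, and GIV depletion with LPS compares 3 sets with set 2.

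Glucose enters a cell through SLC2A carriers, is trapped by hexokinases, and is committed to glycolysis at phosphofructokinase. PFKFB enzymes set the level of fructose 2,6-bisphosphate, the strongest activator of that step. Macrophages given LPS are known for high glucose uptake and lactate output, for use of the pentose phosphate pathway as a source of NADPH, and for HIF1A protein that drives glycolytic genes.

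The library labelled control replicate 2 without LPS was left out of every group by the rule that set which libraries were compared. In it a single non-coding RNA gene (Mir6236) took 57.8% of the TPM (a length-adjusted share of the library's transcripts). That share was 3.79% to 8.78% in the other 9 libraries. In that library 35 of the 36 genes lay below both other control libraries, with a median log2 difference of -2.74. Ccdc88a itself was at 10.0 and 7.69 TPM in control cells without LPS and at 6.93, 5.31 and 5.58 TPM in GIV-depleted cells. After LPS its level was 5.77 TPM in control cells, against 3.08, 2.62 and 3.39 TPM in GIV-depleted cells. The left-out library, at 1.18 TPM of Ccdc88a, was below every depleted library. All 8 macrophage markers examined were detected, with a summed level of 19285 to 19775 TPM in control cells without LPS, 14455 TPM in the control library with LPS, 18093 to 18651 TPM in depleted cells without LPS and 11981 to 12554 TPM in depleted cells with LPS. Lyz2 held most of each sum, at 15913 and 15831 TPM in control cells without LPS and 9538 TPM with LPS. Single markers moved in both directions after LPS, with 4 of the 8 called higher and 3 lower in each line (limma adjusted p below 0.05). Over all tested genes 14.8% were higher and 44.1% lower in control cells, and 15.8% and 59.7% in depleted cells. Every one of the fibroblast, epithelial, T cell, B cell, neutrophil and red cell markers examined was below 1 TPM in all 9 libraries. These are bulk samples, so fewer cells of a type and less RNA per cell cannot be told apart in any level below.

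After LPS the glucose carriers Slc2a1 and Slc2a6, the hexokinase Hk3, the phosphofructokinase subunit Pfkp and its regulator Pfkfb3 rose in both lines. Genes of the same steps also fell, namely the carrier Slc2a3, the subunit Pfkm and the regulator Pfkfb2, as did the lactate carrier Slc16a1, the pyruvate dehydrogenase kinases Pdk1 and Pdk2 and the pentose phosphate enzymes Pgd, Taldo1 and Tkt. In control cells 6 of the 35 tested genes were called higher and 19 lower, and 10 were not called (limma adjusted p below 0.05). Over all 13711 tested genes 14.8% were called higher and 44.1% lower in that comparison, 58.9% in all. In GIV-depleted cells 6 genes were called higher, 23 lower and 6 not called, beside 15.8% higher, 59.7% lower and 75.5% in all over the tested genes. A count of this size is therefore read as no result about these genes as a set, and what follows is the size of single changes. Both lines called the same 5 genes higher and the same 19 lower, and none in opposite directions. The same overlap over all tested genes is not given here, so this agreement is likewise read as no result about these genes.

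**Figure D1:**
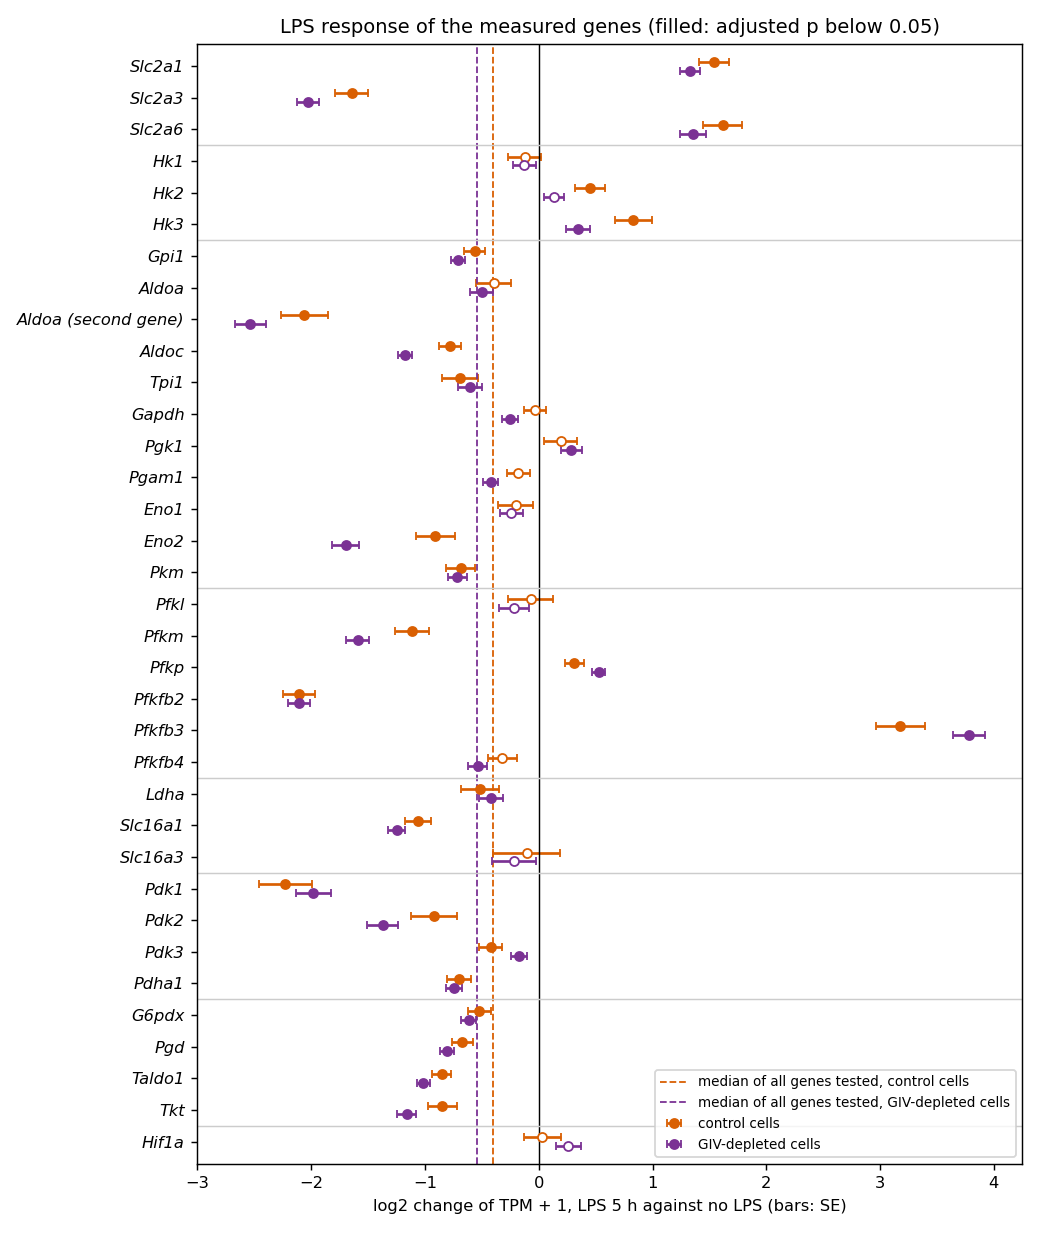
Log2 change of TPM + 1 after 5 h of LPS against no LPS (x axis, points with standard errors) for the 35 tested genes (y axis, ordered by role), in control cells (orange) and GIV-depleted cells (purple). Filled points passed the adjusted p of 0.05, and dashed lines mark the median of all tested genes, -0.40 in control and -0.54 in depleted cells; Pfkfb3, Slc2a1 and Slc2a6 stand farthest to the right in both lines.

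Because TPM is a share of each library's RNA, the zero point of a change depends on how the libraries are scaled. The median log2 change of all tested genes after LPS was -0.40 in control cells and -0.54 in depleted cells with the values as deposited, and -0.01 and -0.04 with TMM scaling, which aligns the bulk of the genes. The median of the 35 genes was -0.52 in control cells and -0.54 in depleted cells as deposited, and -0.07 and 0.03 with TMM. Calls were therefore also read under TMM, under quantile normalization and after rescaling to a total that omits mitochondrial genes and the top 100 genes. With TMM 26.3% of all tested genes were called higher and 26.3% lower in control cells, and 32.3% and 34.8% in depleted cells. Genes called higher in all 4 scalings at once numbered 6 in control cells and 5 in depleted cells, and 12 in each line were called lower in all 4. The share of all tested genes called in all 4 scalings is not given here. These counts are therefore read as no result about the genes as a set. The 5 genes higher in every scaling and both lines were Slc2a1, Slc2a6, Hk3, Pfkfb3 and Pfkp. The 12 that were lower in every scaling and both lines were Slc2a3, Pfkm, Pfkfb2, the second Aldoa gene, Aldoc, Eno2, Slc16a1, Pdk1, Pdk2, Pgd, Taldo1 and Tkt.

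**Figure D2:**
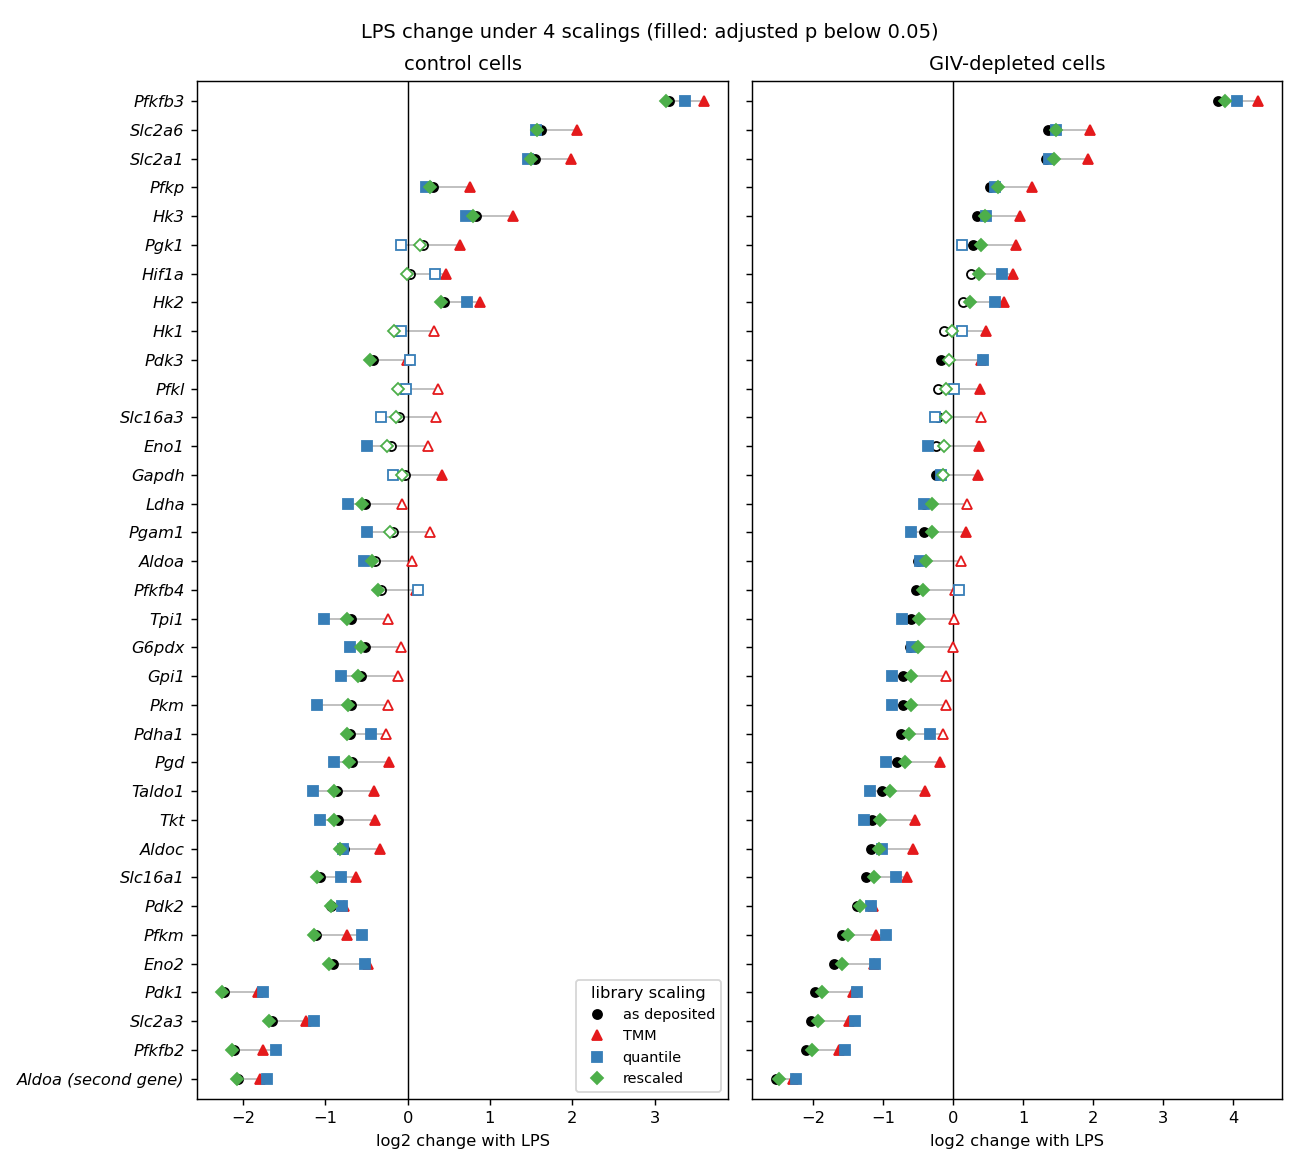
Log2 change with LPS (x axis) of each tested gene (y axis) under the values as deposited, TMM, quantile normalization and rescaling to a total that omits mitochondrial genes and the top 100 genes, in control cells (left) and GIV-depleted cells (right). Filled symbols passed the adjusted p of 0.05; genes at the top and bottom keep their side of 0 in all 4 scalings, while genes near the middle, such as Gapdh (-0.25 as deposited and 0.36 with TMM in depleted cells), cross it.

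The stretches just upstream of the start sites of 6 of these genes are shown as examples, picked from genes called higher and genes called lower after LPS. HIF proteins are known to bind a short core motif, so the letters ACGTG and GCGTG were searched on both strands of the 250 bases before each start (RefSeq, GRCm38.p6). A window matched 34 of the 35 symbols. The sequences are limited to the longest stretch free of annotated exons, run 5′ to 3′ on the gene's strand, and carry ACGTG or GCGTG, or their reverse complements CACGT and CACGC, in capitals. CACGTG holds ACGTG on each strand and counts as a pair of matches.
Pfkfb3 (chr2:11502102-11502340, minus strand): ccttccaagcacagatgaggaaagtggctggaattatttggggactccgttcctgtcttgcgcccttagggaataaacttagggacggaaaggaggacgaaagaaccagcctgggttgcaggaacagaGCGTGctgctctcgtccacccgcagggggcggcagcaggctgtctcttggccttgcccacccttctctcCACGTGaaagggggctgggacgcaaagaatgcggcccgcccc
Slc2a1 (chr4:119108495-119108710, plus strand): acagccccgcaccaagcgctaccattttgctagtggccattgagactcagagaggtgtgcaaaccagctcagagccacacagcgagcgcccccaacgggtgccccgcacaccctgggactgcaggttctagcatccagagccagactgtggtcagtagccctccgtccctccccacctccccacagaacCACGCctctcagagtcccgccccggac
Slc2a6 (chr2:27027999-27028248, minus strand): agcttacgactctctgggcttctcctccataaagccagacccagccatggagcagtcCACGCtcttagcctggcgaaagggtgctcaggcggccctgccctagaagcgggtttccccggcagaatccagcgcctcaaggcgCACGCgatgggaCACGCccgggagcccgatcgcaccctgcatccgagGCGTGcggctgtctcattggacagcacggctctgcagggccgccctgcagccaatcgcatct
Pdk1 (chr2:71872974-71873223, plus strand): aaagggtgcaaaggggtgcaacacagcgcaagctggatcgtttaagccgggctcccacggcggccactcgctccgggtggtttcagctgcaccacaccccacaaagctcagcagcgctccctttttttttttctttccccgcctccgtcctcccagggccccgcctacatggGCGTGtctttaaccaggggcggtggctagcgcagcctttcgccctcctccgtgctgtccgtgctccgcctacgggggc
Slc16a1 (chr3:104638414-104638663, plus strand): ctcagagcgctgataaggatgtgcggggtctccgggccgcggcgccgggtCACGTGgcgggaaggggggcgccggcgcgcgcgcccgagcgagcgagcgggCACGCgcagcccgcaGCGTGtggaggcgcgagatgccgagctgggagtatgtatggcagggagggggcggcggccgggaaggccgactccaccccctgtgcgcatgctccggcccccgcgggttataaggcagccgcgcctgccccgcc
Ldha (chr7:46845554-46845803, plus strand): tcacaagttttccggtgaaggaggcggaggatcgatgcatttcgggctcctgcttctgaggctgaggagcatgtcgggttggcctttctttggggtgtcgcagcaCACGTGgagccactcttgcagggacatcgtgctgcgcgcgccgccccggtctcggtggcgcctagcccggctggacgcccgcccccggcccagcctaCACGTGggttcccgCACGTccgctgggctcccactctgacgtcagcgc

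In these stretches Ldha held 5 matches, Slc2a6 and Slc16a1 held 4 each, Pfkfb3 held 3, and Slc2a1 and Pdk1 held 1 each. Pfkfb3, Ldha and Pdk1 each have another window that is not shown, with 1, 1 and 0 matches in its 250 bases. The Pfkfb3 stretch shown lies before an internal start, within the gene (chr2:11471433-11554077). Slc2a1, Slc2a6 and Pfkfb3 were called higher after LPS and Pdk1, Slc16a1 and Ldha lower, although Ldha kept that call in neither line under TMM (-0.07 in control cells and 0.19 in depleted cells on the log2 scale). Over all 34 genes with a window, 31 (91.2%) held ACGTG or GCGTG, against 41.5% of 27025 mouse genes. Counted by window, the share was 80.4% of 51 windows against 38.6% of 32851. Median GC content was 60.4% in the windows of these genes and 52.4% in all windows, and its part in the difference was not tested. CACGTG, which is included in the ACGTG counts, was found in 7 of the 34 genes and in 6.86% of all genes. All 5 genes called higher in both lines held a match, and so did 14 of 17 called lower in both lines with a window. With a match in 31 of the 34 genes, examples picked from either direction would nearly all hold one. These matches are a description of letters and show no binding, and their part in any change was not tested.

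The glucose transporters moved apart. Slc2a1 (GLUT1), the main carrier of most dividing cells, was at 68.3 and 72.3 TPM in control cells without LPS and at 207 TPM with LPS. Its level in depleted cells was 84.5, 80.4 and 67.5 TPM without LPS and at 196, 204 and 185 TPM with LPS. All 4 LPS libraries lay above all 5 libraries without LPS. The rise was 1.54 ± 0.13 (log2 change ± SE, limma adjusted p = 4.08e-05) in control cells and 1.33 ± 0.09 (limma adjusted p = 3.82e-06) in depleted cells, or 2.94-fold and 2.52-fold of the mean TPM.

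Slc2a6 (GLUT6), a carrier found on lysosomal membranes in macrophages, went from 50.4 and 61.7 TPM to 173 TPM in control cells. In depleted cells it went from 55.9, 60.7 and 54.0 TPM to 137, 171 and 136 TPM. Again no library with LPS overlapped one without it, and the rise was 1.62 ± 0.17 in control and 1.36 ± 0.11 in depleted cells on the log2 scale. Slc2a3 (GLUT3), a high-affinity carrier, moved the other way, from 17.7 and 21.3 TPM to 5.54 TPM in control cells. In depleted cells it fell from 19.2, 22.7 and 19.2 TPM to 4.18, 4.44 and 4.05 TPM. The log2 change of Slc2a3 was -1.64 ± 0.15 in control and -2.03 ± 0.10 in depleted cells, with no overlap between states. Together the 3 carriers summed to 136 to 155 TPM in control cells without LPS and 385 TPM with LPS, and to 141 to 164 TPM and 325 to 379 TPM in depleted cells. Within that sum Slc2a3 went from 13.4% to 1.44% in control cells and from 13.2% ± 1.01 to 1.22% ± 0.04 (SD, n = 3) in depleted cells. Such a share is unchanged by a single factor per library, as in TMM, but can change with quantile normalization.

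**Figure D3:**
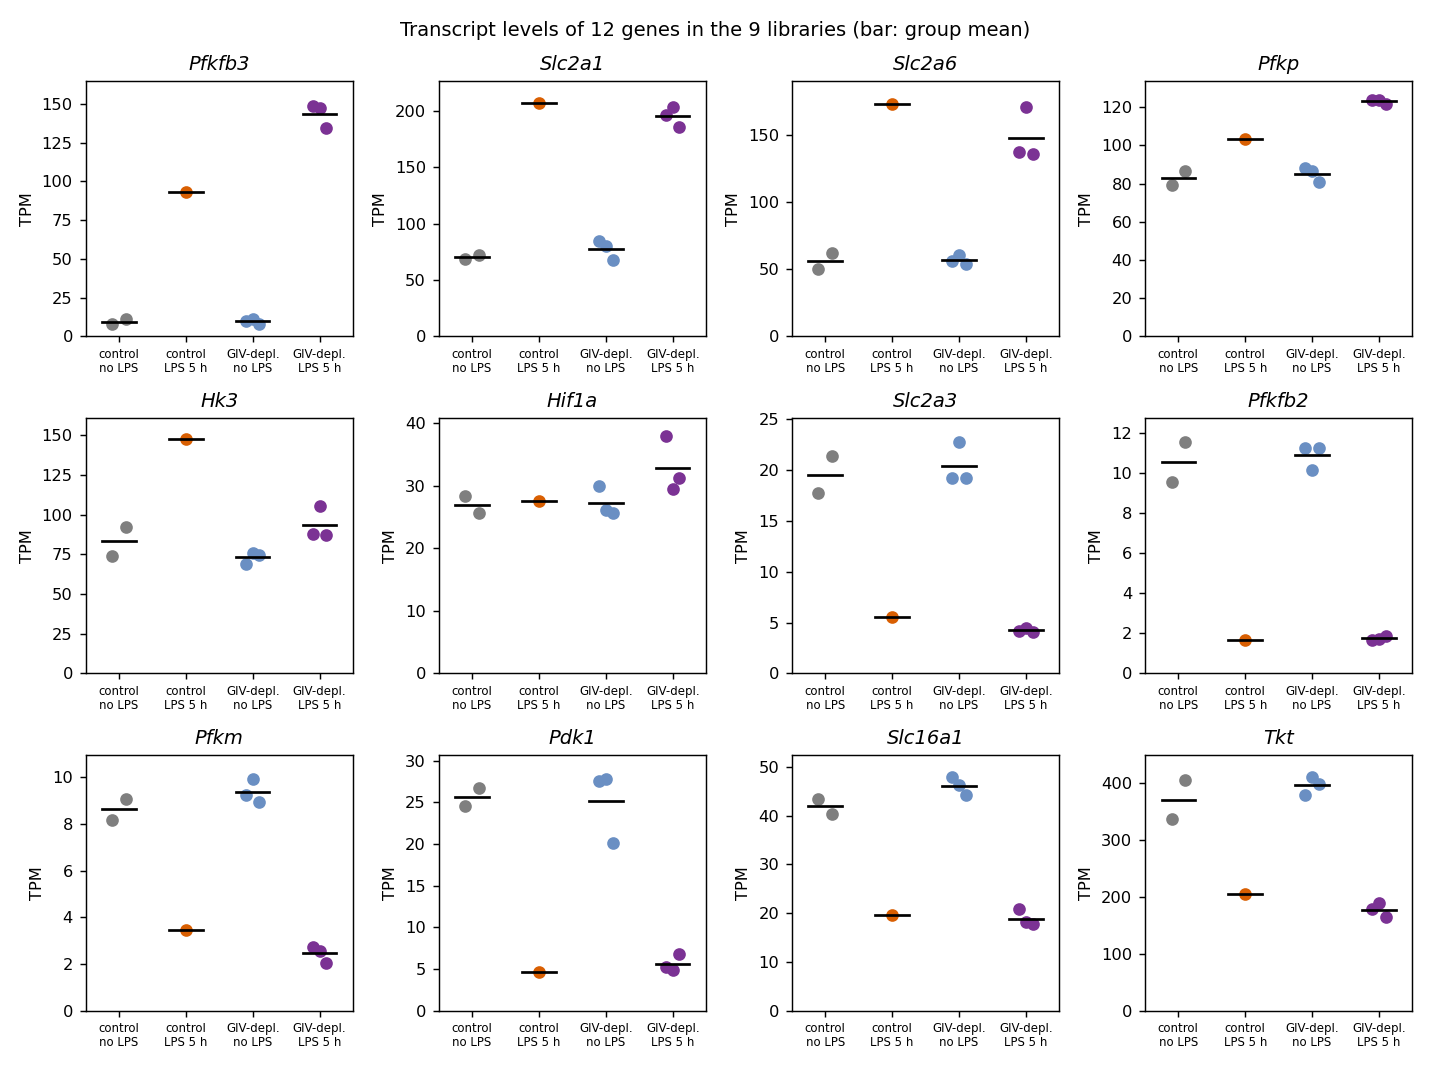
TPM (y axis, from 0) of 12 genes in each of the 9 libraries, grouped by line and LPS (x axis), with a bar at each group's mean. Pfkfb3, Slc2a1 and Slc2a6 are higher in every LPS library than in every library without LPS, and Slc2a3, Pfkfb2, Pfkm, Pdk1, Slc16a1 and Tkt are lower.

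Among the hexokinases, which phosphorylate glucose, Hk3 was the form with the highest TPM in every group and, as deposited, the one called higher in both lines. Its level was 73.9 and 92.3 TPM in control cells without LPS and 148 TPM with LPS. Depleted cells had 68.6, 76.0 and 74.8 TPM without LPS and 87.7, 106 and 86.9 TPM with LPS. The depleted LPS values overlap the control values without LPS, but not those of depleted cells without LPS. The log2 change was 0.83 ± 0.16 (limma adjusted p = 0.00293) in control and 0.34 ± 0.11 (limma adjusted p = 0.0191) in depleted cells. The call in depleted cells was lost without depleted replicate 1 without LPS (limma adjusted p = 0.0639) or depleted replicate 2 with LPS (limma adjusted p = 0.0584).

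Hk2, the form that many cells induce, was at 23.2 and 25.6 TPM in control cells without LPS and 33.6 TPM with LPS, a rise of 0.45 ± 0.13 that lost its call without control replicate 1 (limma adjusted p = 0.0708). In depleted cells Hk2 changed by 0.13 ± 0.09 and was not called as deposited, but was called higher under the 3 other scalings. Hk1, the constitutive mitochondria-bound form, stayed between 52.4 and 71.7 TPM in all 9 libraries, with log2 changes of -0.12 ± 0.15 and -0.13 ± 0.10 that were not called. With TMM the change of Hk1 in depleted cells was 0.47 and called. As a share of the hexokinase sum, Hk3 went from 48.4% to 61.7% in control cells and from 46.0% ± 2.50 to 52.8% ± 1.35 (SD, n = 3) in depleted cells, and Hk1 went down from 37.2% to 24.3% and from 38.3% ± 1.69 to 31.6% ± 0.98.

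The largest rise was at the regulators of phosphofructokinase. Pfkfb3, the bifunctional enzyme with the highest kinase activity relative to its phosphatase, was at 7.94 and 11.1 TPM in control cells without LPS and at 93.0 TPM with LPS. In depleted cells it was at 9.93, 11.0 and 7.86 TPM without LPS and at 148, 147 and 135 TPM with LPS. The 3 depleted LPS libraries all lay above the lone control LPS library. On the log2 scale the rise was 3.18 ± 0.21 (limma adjusted p = 1.16e-05) in control and 3.78 ± 0.14 (limma adjusted p = 1.91e-07) in depleted cells, or 9.78-fold and 15.0-fold of the mean TPM.

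Pfkfb2, the form best known from heart and controlled by phosphorylation, moved the opposite way. Its level fell from 9.54 and 11.5 TPM to 1.66 TPM in control cells and from 11.3, 10.1 and 11.2 TPM to 1.69, 1.70 and 1.87 TPM in depleted cells. The log2 change was -2.11 ± 0.14 in control and -2.11 ± 0.09 in depleted cells. Pfkfb4, whose product also makes or removes fructose 2,6-bisphosphate, was at 14.4 and 16.7 TPM without LPS and 12.2 TPM with LPS in control cells (-0.32 ± 0.12, not called, but -0.42 and called without control replicate 1). In depleted cells Pfkfb4 went from 14.8, 16.5 and 17.0 TPM to 11.1, 11.0 and 10.2 TPM, a change of -0.54 ± 0.08 that was called as deposited and was 0.03 with TMM and 0.08 with quantile normalization, not called.

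The TPM of these 3 PFKFB genes was also read as a share of their sum, which leaves out Pfkfb1, listed at 3.31 to 5.13 TPM without LPS and 1.55 to 1.77 TPM with LPS. Pfkfb3 made up 26.6% of the sum in control cells without LPS and 87.0% with LPS, and 26.2% ± 3.88 and 92.0% ± 0.18 (SD, n = 3) in depleted cells. Pfkfb2 went from 29.6% to 1.56% and from 29.8% ± 2.49 to 1.13% ± 0.13, and Pfkfb4 from 43.8% to 11.4% and from 44.1% ± 2.98 to 6.91% ± 0.05. Without LPS Pfkfb4 was thus the largest of the 3, and with LPS Pfkfb3 was.

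Phosphofructokinase is a tetramer of the subunits encoded by Pfkl, Pfkm and Pfkp. Pfkp, the platelet-type subunit, rose from 79.5 and 86.5 TPM to 103 TPM in control cells (0.31 ± 0.08) and from 88.0, 86.7 and 80.9 TPM to 124, 124 and 122 TPM in depleted cells (0.53 ± 0.06). Pfkm, the muscle-type subunit, fell from 8.15 and 9.08 TPM to 3.45 TPM in control cells (-1.11 ± 0.15) and from 9.24, 9.92 and 8.93 TPM to 2.73, 2.57 and 2.06 TPM in depleted cells (-1.59 ± 0.10). The depleted LPS libraries were above the control LPS library for Pfkp and below it for Pfkm. Pfkl, the liver-type subunit, ranged from 52.8 to 76.9 TPM with no call in either line as deposited. In depleted cells its change of -0.22 ± 0.13 turned to a called 0.38 with TMM, and was a called -0.33 without depleted replicate 3 without LPS (limma adjusted p = 0.0439). Pfkp went from 53.9% to 62.2% of the subunit sum in control cells and from 52.3% ± 2.13 to 66.8% ± 2.25 (SD, n = 3) in depleted cells, and Pfkm from 5.59% to 2.08% and from 5.75% ± 0.39 to 1.33% ± 0.20.

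**Figure D4:**
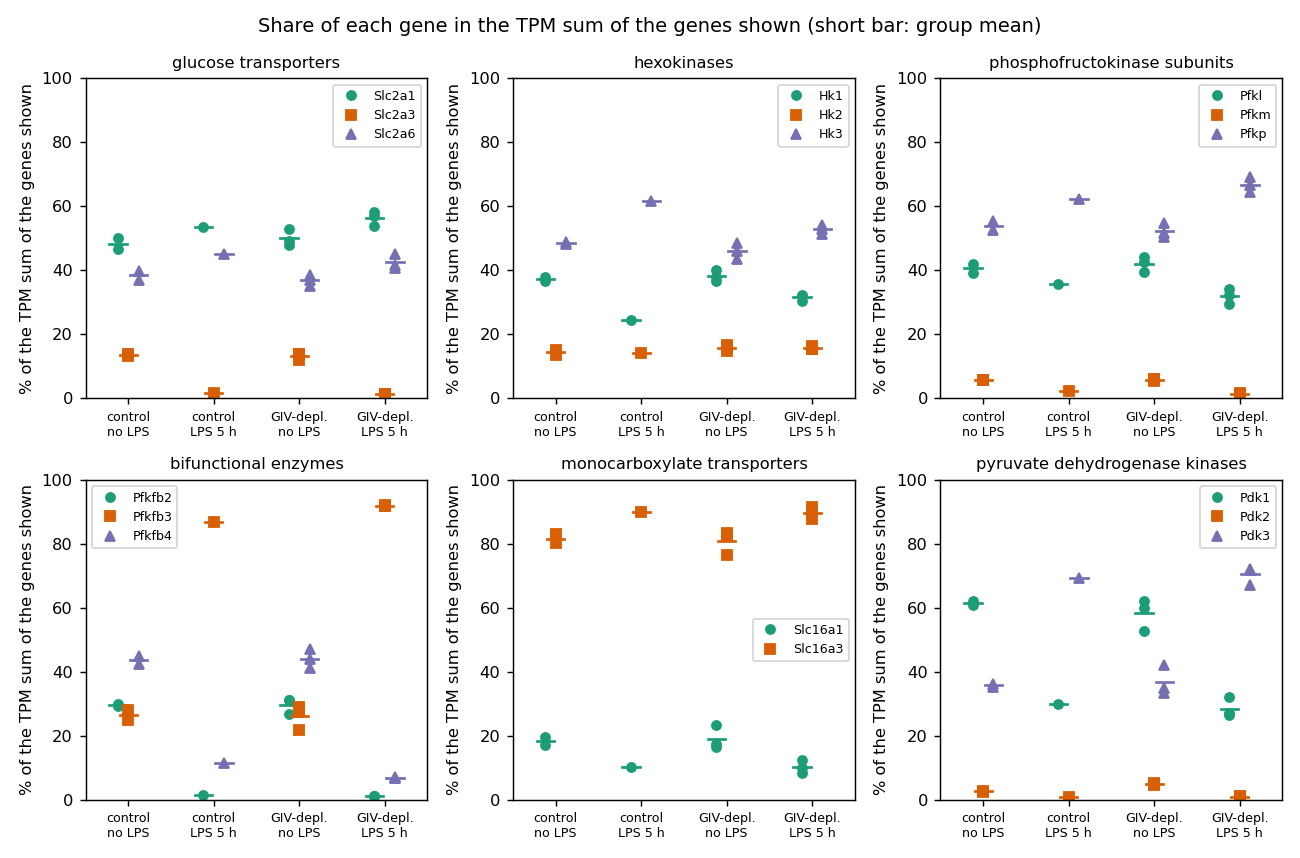
Share of each gene in the summed TPM of the genes shown in its panel (y axis, 0 to 100%) in each of the 9 libraries, grouped by line and LPS (x axis), with short bars at group means. The leading gene changes with LPS among the bifunctional enzymes (from Pfkfb4 to Pfkfb3) and the pyruvate dehydrogenase kinases (from Pdk1 to Pdk3), while the leading hexokinase, Hk3, and the leading monocarboxylate transporter, Slc16a3, stay the same.

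The remaining glycolytic enzymes hold most of the transcripts of the pathway, and none of the 11 genes was called higher in control cells as deposited. Their summed level was 9938 to 11238 TPM in control cells without LPS and 8292 TPM with LPS, and 10644 to 11739 TPM and 7980 to 8725 TPM in depleted cells. In control cells 6 of the 11 were called lower, and in depleted cells 9 were called lower and 1, Pgk1, higher. Only 3 of them, the second Aldoa gene, Aldoc and Eno2, were lower in each of the 4 scalings in both lines.

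Gpi1, which turns glucose 6-phosphate into fructose 6-phosphate, went from 524 and 570 TPM to 370 TPM in control cells (-0.56 ± 0.09) and from 622, 565 and 567 TPM to 369, 349 and 350 TPM in depleted cells (-0.71 ± 0.06). Under TMM these changes were -0.11 and -0.10 and were not called. Aldoa, the aldolase that cleaves fructose 1,6-bisphosphate in most tissues, changed by -0.40 ± 0.15 in control cells, not called as deposited (limma adjusted p = 0.0561) but called lower with quantile normalization, after rescaling, without control replicate 1 (-0.53) and without depleted replicate 2 with LPS. In depleted cells the Aldoa change was -0.50 ± 0.10, and it was 0.11 and not called with TMM. Tpi1, which interconverts the triose phosphates, was lower by log2 changes of -0.69 ± 0.16 and -0.60 ± 0.11, and neither call held with TMM (-0.24 and 0.01).

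The less abundant aldolase and enolase forms had more negative changes than the main ones, a difference between genes that was not tested. Aldoc, the brain-type aldolase, was at 88.5 and 97.6 TPM without LPS and 53.8 TPM with LPS in control cells, and at 108, 119 and 111 TPM and then 47.1, 51.0 and 49.5 TPM in depleted cells. Its log2 changes were -0.78 ± 0.10 and -1.17 ± 0.06. Eno2, the neuron-type enolase, went from 21.8 and 26.9 TPM to 12.4 TPM in control cells (-0.91 ± 0.17) and from 31.8, 31.9 and 24.9 TPM to 8.29, 8.24 and 8.54 TPM in depleted cells (-1.70 ± 0.11). For both genes no LPS library overlapped a library without LPS. The second gene named Aldoa (ENSMUSG00000114515, chr7:126800790-126809108, minus strand, protein coding, GENCODE M21) lies just upstream of the main one (ENSMUSG00000030695, chr7:126795234-126800751). It was at 4.21 to 5.77 TPM in the 5 libraries without LPS and at 0.42 TPM or below in the 4 with LPS, and reads that could come from either gene make its level uncertain.

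Several of the most abundant transcripts had small changes. Gapdh, the glyceraldehyde 3-phosphate dehydrogenase often used as a reference gene, was at 1868 and 2122 TPM without LPS and 1947 TPM with LPS in control cells (-0.03 ± 0.10, not called). In depleted cells it went from 2024, 2106 and 2120 TPM to 1696, 1699 and 1855 TPM (-0.25 ± 0.07, limma adjusted p = 0.00891). With TMM both values turned to rises that were called, 0.42 in control and 0.36 in depleted cells. Pgk1, an ATP-producing kinase of the pathway, was not called in control cells (0.19 ± 0.14), where the change was -0.08 with quantile normalization and a called 0.64 with TMM. It was called higher in depleted cells (0.29 ± 0.10, limma adjusted p = 0.0254), a call lost with quantile normalization (0.13) and without depleted replicate 3 without LPS or without depleted replicates 2 or 3 with LPS (limma adjusted p from 0.0638 to 0.0802).

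Pkm, which makes pyruvate and was the most abundant of all these transcripts, went from 2915 and 3435 TPM to 1967 TPM in control cells and from 3581, 3602 and 3370 TPM to 2034, 2342 and 2063 TPM in depleted cells. The changes were -0.69 ± 0.13 and -0.71 ± 0.08, and were not called with TMM (-0.24 and -0.10). Pgam1, the phosphoglycerate mutase, changed by -0.18 ± 0.10 in control cells, not called (a called -0.49 with quantile normalization and 0.27 with TMM), and by -0.42 ± 0.07 in depleted cells, where TMM gave a called rise of 0.19. Eno1, the main enolase, was not called in either line as deposited (-0.20 ± 0.15 and -0.24 ± 0.10). Under TMM, Eno1 was called higher in depleted cells (0.37), and quantile normalization called it lower in both lines. Without depleted replicate 3 without LPS it was called lower in depleted cells (-0.33, limma adjusted p = 0.0162). The near-identical gene Eno1b was listed at up to 659.6 TPM and Pgam1-ps2 at up to 160.0 TPM, so the split of reads within these pairs is uncertain. Eno1 and Eno1b together went from 1416 and 1614 TPM to 1307 TPM in control cells and from a range of 1399 to 1727 TPM to one of 1265 to 1389 TPM in depleted cells.

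For lactate, Ldha encodes the muscle-type subunit of lactate dehydrogenase. It went from 1390 and 1546 TPM to 1024 TPM in control cells and from 1694, 1605 and 1311 TPM to 1053, 1241 and 1138 TPM in depleted cells. No LPS library reached the lowest library without LPS. The log2 change was -0.52 ± 0.16 (limma adjusted p = 0.0267) in control and -0.42 ± 0.11 (limma adjusted p = 0.00813) in depleted cells. Both calls were lost with TMM, where the value in depleted cells turned to 0.19, and the control call was lost without control replicate 3 (limma adjusted p = 0.0927).

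Slc16a1 (MCT1), which carries lactate and pyruvate in either direction, fell from 43.5 and 40.3 TPM to 19.5 TPM in control cells and from 47.9, 46.2 and 44.2 TPM to 20.8, 18.1 and 17.8 TPM in depleted cells. Its log2 changes were -1.06 ± 0.11 and -1.25 ± 0.08 and were called in each scaling. Slc16a3 (MCT4), the exporter typical of glycolytic cells, was at 178 and 197 TPM without LPS and 174 TPM with LPS in control cells, and at 242, 220 and 144 TPM and then 148, 199 and 164 TPM in depleted cells. Groups overlapped, and neither change was called (-0.10 ± 0.29 and -0.22 ± 0.20), though the large standard errors allow a change of either sign. Without depleted replicate 3 without LPS the Slc16a3 change in depleted cells was -0.44 and called lower (limma adjusted p = 0.0181). Slc16a3 went from 81.7% to 89.9% of the sum of this pair of transporters in control cells and from 80.8% ± 3.81 to 89.9% ± 2.01 (SD, n = 3) in depleted cells.

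Pyruvate dehydrogenase kinases switch off the complex that takes pyruvate into the mitochondrial cycle. Pdk1, a known HIF target, fell from 24.5 and 26.7 TPM to 4.68 TPM in control cells and from 27.6, 27.7 and 20.1 TPM to 5.19, 4.81 and 6.84 TPM in depleted cells. The log2 change was -2.23 ± 0.23 (limma adjusted p = 0.000113) in control and -1.98 ± 0.15 (limma adjusted p = 9.45e-06) in depleted cells, the opposite direction from Slc2a1 and Pfkfb3, which are also known HIF targets. The part of HIF in these directions was not tested. Pdk2 was low throughout, at 1.08 to 2.24 TPM without LPS and 0.11 to 0.23 TPM with LPS, and was called lower in both lines. On the log2(TPM + 1) scale its changes of -0.92 ± 0.20 and -1.37 ± 0.13 understate the ratios of mean TPM, which were 10.0-fold and 11.1-fold lower.

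Pdk3 moved less, from 14.7 and 15.0 TPM to 10.8 TPM in control cells and from 16.1, 14.8 and 16.1 TPM to 14.2, 12.8 and 14.4 TPM in depleted cells. The change of -0.42 ± 0.10 in control cells was called as deposited, and was not called lower with TMM or with quantile normalization (0.03). That in depleted cells, -0.17 ± 0.07 (limma adjusted p = 0.0485), lost its call without any single one of the 8 libraries other than the control LPS library, and turned to called rises of 0.40 with TMM and 0.42 with quantile normalization. Pdk3 went from 35.7% to 69.4% of the sum of the 3 kinases in control cells and from 36.8% ± 4.67 to 70.5% ± 2.77 (SD, n = 3) in depleted cells. Pdha1, the subunit of the complex that these kinases phosphorylate, went from 38.5 and 38.7 TPM to 23.3 TPM in control cells (-0.70 ± 0.11) and from 41.8, 45.3 and 40.8 TPM to 25.4, 26.6 and 23.1 TPM in depleted cells (-0.74 ± 0.07), and TMM did not call it in either line (-0.27 and -0.15).

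All 4 pentose phosphate enzymes were called lower in both lines with the values as deposited. G6pdx, the entry enzyme and first source of NADPH, went from 153 and 179 TPM to 115 TPM in control cells (-0.52 ± 0.10) and from 148, 159 and 155 TPM to 97.0, 103 and 100.3 TPM in depleted cells (-0.62 ± 0.07). With TMM the G6pdx changes were -0.08 and -0.01 and were not called. Pgd, the next enzyme that makes NADPH, fell from 376 and 414 TPM to 247 TPM (-0.67 ± 0.10) and from 423, 422 and 404 TPM to 244, 249 and 221 TPM (-0.81 ± 0.06).

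The enzymes of the non-oxidative branch, which link the pathway back to glycolysis, were called lower in each of the 4 scalings. Taldo1, the transaldolase, went from 754 and 827 TPM to 437 TPM in control cells (-0.85 ± 0.08) and from 764, 790 and 753 TPM to 379, 395 and 367 TPM in depleted cells (-1.01 ± 0.06). Tkt, the transketolase, went from 336 and 404 TPM to 204 TPM (-0.85 ± 0.13) and from 378, 410 and 398 TPM to 178, 188 and 164 TPM (-1.16 ± 0.08). No LPS library overlapped a library without LPS for any of the 4 enzymes. Their sum was 1620 to 1824 TPM in control cells without LPS and 1004 TPM with LPS, and 1710 to 1782 TPM and 853 to 936 TPM in depleted cells.

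Hif1a, the oxygen-regulated subunit of HIF-1, was at 28.4 and 25.6 TPM without LPS and 27.6 TPM with LPS in control cells (0.03 ± 0.16). In depleted cells it was at 29.9, 26.1 and 25.6 TPM without LPS and at 37.9, 29.4 and 31.3 TPM with LPS (0.26 ± 0.11, limma adjusted p = 0.0554). It was thus not called in either line as deposited, and was called higher in depleted cells in the 3 other scalings (up to 0.85 with TMM) and in control cells with TMM (0.46). The call also appeared as deposited without depleted replicate 1 without LPS or without depleted replicate 2 with LPS.

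GIV depletion was compared at each state. Without LPS none of the 35 genes was called between depleted and control cells by limma. Over all tested genes 1.22% were called, 0.489% higher and 0.729% lower. Among the 35 genes 2, Aldoc and Pdk2, had an unadjusted p below 0.05. The share of all tested genes at that looser threshold is not given here. Aldoc was 0.27 ± 0.07 higher (log2, limma adjusted p = 0.17) and Pdk2 0.54 ± 0.15 higher (limma adjusted p = 0.19) in depleted cells. The difference was 0.02 ± 0.16 for Pfkfb3 (95% interval -0.35 to 0.39) and 0.13 ± 0.10 for Slc2a1 (95% interval -0.10 to 0.36). Of the 8 macrophage markers, Adgre1, Itgam and Fcgr3 were called lower in depleted cells in the same comparison, and the part of cell state in these values was not tested.

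With LPS the comparison sets 3 depleted libraries against the lone control library, and again none of the 35 genes was called by limma. Here 5.27% of all tested genes were called, 0.89% higher and 4.38% lower. An unadjusted p below 0.05 was reached by 8 of the 35 genes. The share of all tested genes at that looser threshold is not given here, so this count is read as no result. Hk3 had the largest difference, at 86.9 to 106 TPM in depleted cells and 148 TPM in control cells (-0.66 ± 0.15, limma adjusted p = 0.0517). It was called lower without either control library without LPS (limma adjusted p = 0.0325 and 0.0328), without depleted replicate 2 with LPS (limma adjusted p = 0.0423) and after rescaling (limma adjusted p = 0.0497), but not with TMM or quantile normalization (limma adjusted p = 0.0951 and 0.0853). Pfkfb3, at 135 to 148 TPM against 93.0 TPM, was 0.62 ± 0.20 higher (limma adjusted p = 0.13) and was not called in any scaling. Pfkp, at 122 to 124 TPM against 103 TPM, was 0.25 ± 0.08 higher (limma adjusted p = 0.11) and was called in the 3 other scalings, with differences of 0.37 to 0.42. Pdk3, at 12.8 to 14.4 TPM against 10.8 TPM, was 0.32 ± 0.10 higher and was called with TMM alone (0.48). Eno2 differed by -0.52 ± 0.16 (limma adjusted p = 0.11). For the same samples Adgre1, Csf1r and Itgam were called lower among the 8 macrophage markers.

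**Figure D5:**
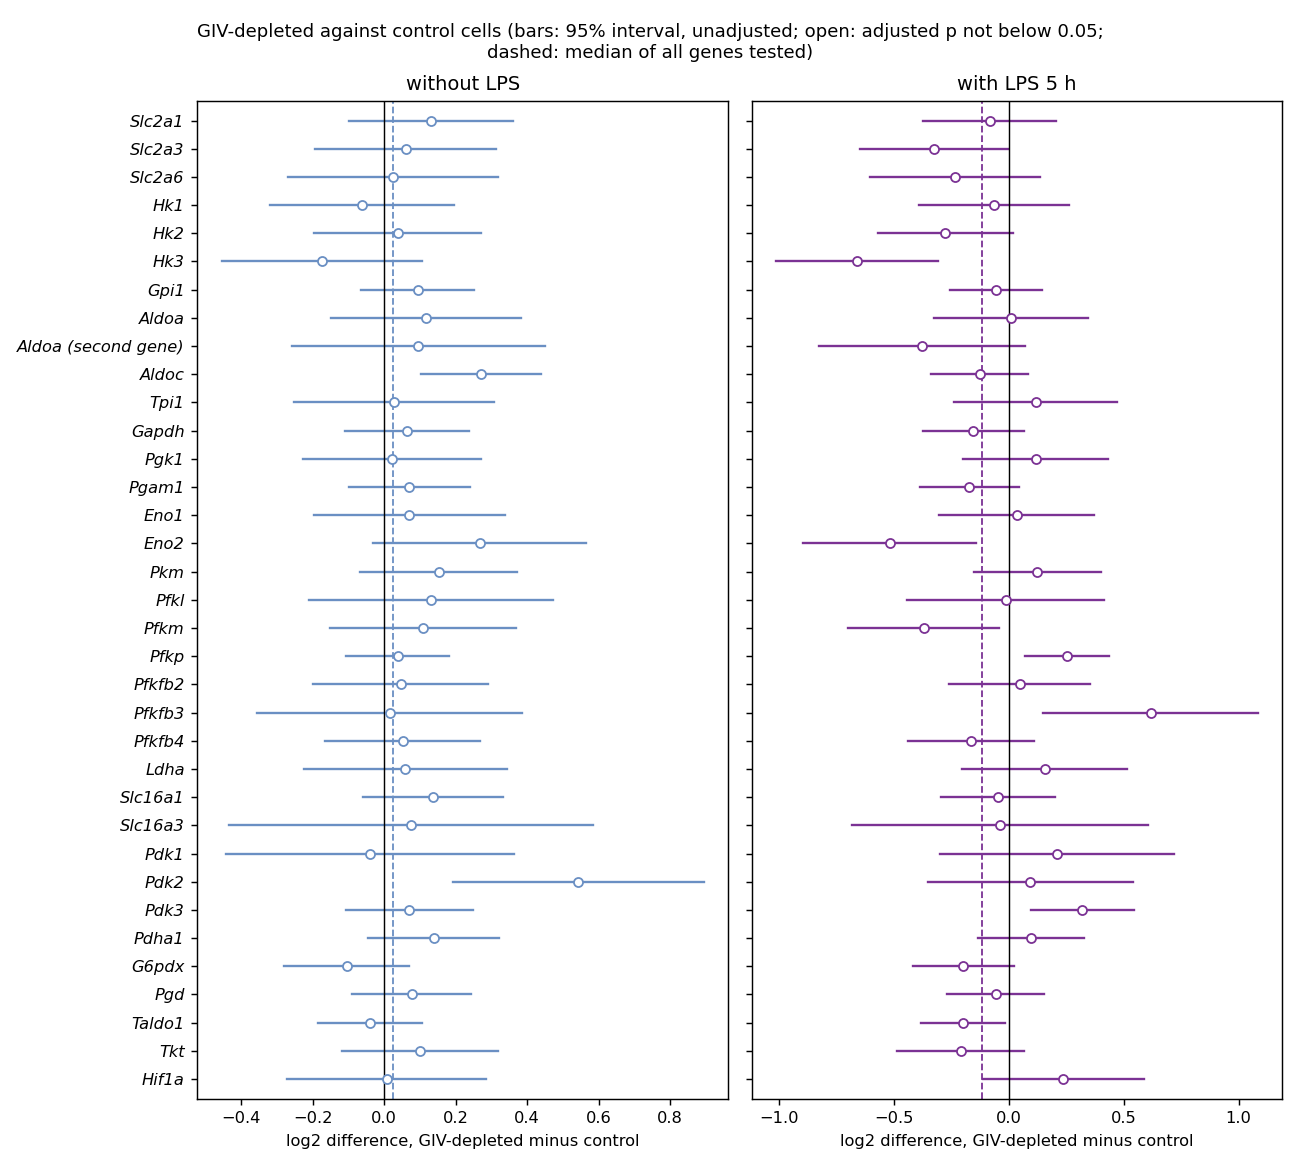
Log2 difference between GIV-depleted and control cells (x axis, points with unadjusted 95% intervals) for the 35 tested genes (y axis), without LPS (left) and with LPS (right; the x ranges differ). Open points did not pass the adjusted p of 0.05, and the dashed line is the median of all tested genes, 0.02 without and -0.12 with LPS; Hk3, Eno2 and Pfkfb3 lie farthest from 0 with LPS.

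The difference between the LPS responses of the lines was tested directly. None of the 35 genes was called by limma, beside 0.226% of all tested genes called (0.0948% higher and 0.131% lower). At the looser threshold of an unadjusted p below 0.05 there were 5 genes. The share of all tested genes at that threshold is not given here, so this count is read as no result. The change of Eno2 differed by -0.79 ± 0.21 in depleted against control cells (limma adjusted p = 0.13), that of Pfkm by -0.48 ± 0.18 (limma adjusted p = 0.24) and that of Aldoc by -0.40 ± 0.12 (limma adjusted p = 0.16). Pfkfb3 had a response that was 0.60 ± 0.26 larger (95% interval 0.01 to 1.20, limma adjusted p = 0.28) and Hk3 one that was -0.49 ± 0.19 smaller (limma adjusted p = 0.26). With 1 control LPS library the intervals are wide, and values that miss the threshold do not show that the lines respond alike. Of the 8 macrophage markers 1 was called higher and 1 lower for this difference, and the part of cell state was not tested.

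Other genes of the same pathways were read from lists made by known function, with earlier results of these data known. The counts below stand beside 14.8% higher and 44.1% lower over all tested genes in control cells and 15.8% and 59.7% in depleted cells, and with TMM beside 26.3% and 26.3%, and 32.3% and 34.8%. The list medians stand beside -0.40 and -0.54 over all tested genes, and nothing particular to a list is read from them. Of 22 other glycolytic and gluconeogenic symbols 14 genes were tested, and after LPS 10 were lower in control and 12 in depleted cells with none higher (median changes -0.93 and -0.79). With TMM the calls were 8 lower and 3 higher in control cells and 7 lower and 3 higher in depleted cells. The LPS changes of genes named from these lists kept their direction and call in each of the 4 scalings unless a sentence says otherwise. Pgp, a phosphatase that removes side products of glycolysis, fell, with log2 changes of -2.40 ± 0.20 in control and -2.85 ± 0.14 in depleted cells. Bpgm, which makes 2,3-bisphosphoglycerate, fell as well (-1.69 ± 0.19 and -1.47 ± 0.13), as did Eno3, the muscle enolase, with -1.44 ± 0.18 and -1.72 ± 0.12.

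Of 16 other lactate and pyruvate genes 12 were tested, with 10 lower in control cells, 12 lower in depleted cells and none higher (medians -0.65 and -0.76). TMM gave 5 lower and 1 higher in control cells, and 6 lower and 3 higher in depleted cells. The monocarboxylate carriers Slc16a7 (-1.97 ± 0.38 and -2.70 ± 0.25) and Slc16a6 (-2.12 ± 0.18 and -1.82 ± 0.12) and the pyruvate carboxylase Pcx (-1.41 ± 0.29 and -1.23 ± 0.19) fell in both lines. Slc2a8 and Slc2a9 were the 2 tested among 8 other sugar carriers, and both were lower in both lines as deposited. Slc2a8 had changes of -0.99 ± 0.18 and -2.53 ± 0.12, with no call in control cells under quantile normalization (-0.44). Its LPS response differed between the lines by -1.54 (limma adjusted p = 0.0503), which was called with TMM (-1.52, limma adjusted p = 0.0435) and quantile normalization (-1.68, limma adjusted p = 0.0453) and not after rescaling (-1.44, limma adjusted p = 0.0574). Slc2a9 changed by -0.55 ± 0.14 and -0.48 ± 0.10 as deposited and by 0.03 and 0.19 with quantile normalization, not called, and its control call was lost without control replicate 3 (limma adjusted p = 0.0502).

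Among 9 other pentose phosphate genes 7 were tested, and 1 was called higher in both lines, with 5 lower in control and 6 in depleted cells (medians -0.94 and -1.21). The one that rose was Rpe, which interconverts pentose phosphates (0.68 ± 0.10 and 0.44 ± 0.06). Prps2, which makes phosphoribosyl pyrophosphate, fell in both lines (-1.80 ± 0.13 and -2.05 ± 0.09). So did Shpk, the sedoheptulose kinase (-1.37 ± 0.21 and -1.29 ± 0.14), and H6pd, the entry enzyme of the endoplasmic reticulum (-0.94 ± 0.12 and -1.50 ± 0.08).

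Of 8 HIF regulators 5 were tested, and as deposited Egln1 was the one called, lower in both lines (-1.36 ± 0.17 and -1.34 ± 0.11), with list medians of 0.03 and -0.19. It encodes a prolyl hydroxylase that marks HIF subunits for degradation. With TMM, and with quantile normalization, 3 of the others were called higher in control and 4 in depleted cells. Of 14 HIF targets outside glycolysis 13 were tested, with 2 higher in each line, 8 lower in control and 7 in depleted cells (medians -0.57 and -0.49). P4ha1, a collagen prolyl hydroxylase subunit (0.97 ± 0.13 and 0.90 ± 0.09), and Ddit4, an inhibitor of mTORC1 signalling (0.94 ± 0.18 and 2.56 ± 0.12), rose, and Mxi1, a MAX-binding repressor (-1.67 ± 0.12 and -1.70 ± 0.08), fell. Ankrd37 had changes of -1.60 ± 0.51 and -2.03 ± 0.34, called lower in both lines, a call that control cells lost with TMM or quantile normalization and without control replicate 1 or 3 (limma adjusted p = 0.055 and 0.0866). With TMM the calls were 2 higher and 3 lower in control cells and 3 higher and 5 lower in depleted cells.

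With LPS, GIV depletion was called for 4 of the 53 tested genes on these 6 lists, 7.55%, beside 5.27% over all tested genes, and the count is not a result about the lists. Slc2a8 was at 0.723, 0.638 and 0.643 TPM in depleted cells and 2.70 TPM in control cells (-1.15 ± 0.17, limma adjusted p = 0.012). H6pd was at 3.99, 4.19 and 4.26 TPM against 7.73 TPM (-0.76 ± 0.11, limma adjusted p = 0.0126). Ddit4 was at 10.3, 11.1 and 10.5 TPM against 3.25 TPM (1.45 ± 0.17, limma adjusted p = 0.00684). For Slc2a8 and H6pd every depleted library was below the lone control library, for Ddit4 every one was above it, and the 3 genes were called in all 4 scalings. With the replicate number as a block, however, Slc2a8 and H6pd were not called. Kdm3a, a histone demethylase and HIF target, differed by -0.40 ± 0.09 (limma adjusted p = 0.043), and was not called in the 3 other scalings, with the replicate block, without the variance trend, or without any single depleted library (limma adjusted p from 0.0654 to 0.0974 for the last).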

How the data were processed

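Total RNA of mouse RAW cells was depleted of ribosomal RNA and sequenced from stranded libraries with paired ends, per the labels' protocols. The deposited log2 values are log2(TPM + 1) for each gene. The submitters' processing notes name kallisto 0.45.0 and GRCm38. The annotation release is not given in the sources used here. Deposited TPM keeps no read total, so no counting interval can be given. Of 11 labelled samples 10 have a column, 9 entered the comparisons, and no pair of columns was identical.

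Comparisons used moderated variances from limma 3.58.1 (R 4.3.3) and a mean-variance trend, 1 model of 4 groups with 5 residual degrees of freedom. A gene was tested if 2 or more libraries had a deposited value of 1 or higher (13711 genes). P-values were adjusted by Benjamini-Hochberg over all of them in each of 5 comparisons, with a threshold of 0.05. Levels are 2 to the power of the value, minus 1. The fit was tested on simulated data. TMM factors were computed from TPM (trims of 30% and 5%).

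The genes and lists were chosen with earlier results of these data known. By the naming rule, values in every library go to genes called under GIV depletion or with the 3 largest called LPS changes in each direction, and each list is named by the 3 called genes with the largest change. Other genes were printed or named (Rpe, P4ha1 and Slc2a9 among them) after their values were seen. Alternatives were the replicate number as a block, no filter or a stricter one (log2 of at least 3), a pseudocount of 0.1, TMM, quantile normalization, rescaling to a total that omits mitochondrial genes and the top 100 genes, no variance trend, fewer groups in the fit, the left-out library added, and leaving out each library.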

Additional observations from a re-analysis of the deposited data

Results flagged for a closer look

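Ddit4, an inhibitor of mTORC1 signalling on the list of HIF targets, had an LPS response that differed between the lines by a direct test of the difference. Its level was 1.49 and 0.954 TPM in control cells without LPS and 3.25 TPM with LPS, and 1.07, 1.03 and 0.808 TPM and then 10.3, 11.1 and 10.5 TPM in GIV-depleted cells. The difference of the log2 responses was 1.62 ± 0.22 (limma adjusted p = 0.0487). It passed with TMM, quantile normalization, rescaling, no filter, no variance trend and without control replicate 3 without LPS (limma adjusted p from 0.0296 to 0.0487), and missed the threshold with the replicate block, the stricter filter, a pseudocount of 0.1, the left-out library added, and without each of the 7 other libraries that could be left out (limma adjusted p from 0.0554 to 0.715).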

How the results depend on the processing

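For LPS in control cells, the 6 genes called higher became 3 in a fit of the 3 libraries compared and 1 with the left-out library added, and the 19 called lower became 12 with TMM, 5 in the fit of the 3 libraries and 0 with that library. For LPS in depleted cells, the 6 called higher became 14 with TMM and 1 with the left-out library, and the 23 lower became 12 and 6. GIV depletion without LPS gained 1 higher call (Pdk2) without the variance trend. GIV depletion with LPS gained 2 higher calls with TMM, 1 with quantile normalization and 1 after rescaling, and 1 lower call (Hk3) with the stricter filter, a pseudocount of 0.1 or rescaling. That last count ranged from 0 to 1 when libraries were left out.

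With the left-out library added, control LPS changes turned to 0.53 for Gpi1, 0.32 for Aldoc, 0.75 for Tpi1, 0.37 for Pkm, 0.80 for Ldha, 0.62 for Pdk3, 0.36 for Pdha1, 0.46 for G6pdx, 0.46 for Pgd, 0.49 for Taldo1, 0.27 for Tkt and 0.018 for Kdm3a, none of them called. With TMM, Gapdh turned to 0.42 and Kdm3a to 0.0136 in control cells, and in depleted cells the values turned to 0.47 for Hk1, 0.38 for Pfkl, 0.0307 for Pfkfb4, 0.11 for Aldoa, 0.0077 for Tpi1, 0.36 for Gapdh, 0.19 for Pgam1, 0.37 for Eno1, 0.19 for Ldha, 0.40 for Pdk3 and 0.0354 for Slc2a9. With quantile normalization, Pdk3, Slc2a9 and Kdm3a turned to 0.0346, 0.0293 and 0.0306 in control cells, and Pfkfb4, Pdk3 and Slc2a9 to 0.081, 0.42 and 0.19 in depleted cells. The cause was not tested.

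Same-numbered depleted libraries had correlations of their deviations of 0.0617, 0.0715 and 0.097 over genes, each depleted library highest with its own number. Depleted libraries of unlike numbers had values from -0.0707 to -0.0042. Control libraries 1 and 3 without LPS had values of 0.0972 and 0.0672 with the same-numbered depleted libraries without LPS. With those given LPS the values were 0.0361 and -0.0013. Same-numbered depleted pairs were thus all positive and unlike-numbered ones all negative, though none was above 0.1. The labels do not say what the set numbers in the titles mark, and the main fit did not take the numbers as pairs. Its p-values therefore take no account of anything a set shared. What a set shared was not tested. With the replicate block the calls were 4 higher and 19 lower for LPS in control cells, 7 and 23 in depleted cells, and 0 in the 3 other comparisons. Over all tested genes the block took the calls from 167 to 58 for depletion without LPS, from 722 to 83 for depletion with LPS and from 31 to 0 for the difference of responses. Under it Hk2, Pfkp, Pdk3 and Ankrd37 were not called for LPS in control cells, nor Slc2a8, H6pd and Kdm3a for depletion with LPS, while Aldoa in control and Hif1a in depleted cells became called for LPS. Without the lone control LPS library only LPS in depleted cells and depletion without LPS could be fitted. The read depth behind each TPM is unknown.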
